A study of Mus musculus with 2 samples.

Results

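The 8 genes described here are Ednrb and Ednra, the receptors for endothelin, their ligand Edn3, and Mitf, Kit, Dct, Pmel and Tyrp1, which mark the path from neural crest glia to the pigment cell. They were chosen by symbol and all 8 were found among the 33207 genes of the count tables. The libraries hold Tomato-positive cells sorted from meninges and dorsal root ganglia with their roots, from Egr2Cre/+ embryos that carry the R26-Tomato reporter, taken at E11.5 or, for the second library, at E12.5 (days of embryonic development). Both libraries therefore have 1 Egr2 allele that drives Cre, and Tomato marks any cell whose ancestors turned Egr2 (Krox20) on, not only the boundary cap cells named in the labels. Each stage is 1 library from the pooled embryos of 1 litter. Differences between stages are thus differences between 2 libraries, without a replicate check, and stage, litter and library cannot be told apart. The question was whether Sox10-positive traced glia hold melanoblast genes, alone or together, at either stage.

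Endothelin 3 is a secreted peptide cut to its active form by endothelin-converting enzyme, and it acts on neural crest cells through EDNRB, a G protein-coupled receptor. EDNRB is needed in the crest for melanoblasts and for enteric neurons, and it stays on in Schwann cell precursors, the nerve-bound glia from which many melanocytes of the skin arise. EDNRA, which binds endothelin 1, works mainly in smooth muscle, pericytes and cranial crest mesenchyme. MITF is the master transcription factor of the melanocyte, turned on in the crest by SOX10 and PAX3. KIT is the receptor tyrosine kinase for KIT ligand, which melanoblasts need to survive and migrate. DCT and TYRP1 are enzymes of melanin synthesis, and PMEL forms the fibrils of the melanosome on which melanin is laid down. Dct is usually the earliest of these pigment genes to appear in melanoblasts.

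In the GENCODE M39 annotation of GRCm39, all 8 are protein-coding genes. Ednrb lies on chromosome 14 from 104052053 to 104081900 on the minus strand, and Dct on the same chromosome and strand from 118250202 to 118289656. Ednra is on chromosome 8 (78386590 to 78451552, minus strand), Edn3 on chromosome 2 (174602088 to 174625835, plus strand) and Mitf on chromosome 6 (97783950 to 97998323, plus strand). Kit is on chromosome 5 (75735576 to 75817404), Pmel on chromosome 10 (128540064 to 128556107) and Tyrp1 on chromosome 4 (80752360 to 80769956), all on the plus strand. Pmel overlaps the opposite-strand genes Cdk2 and Dgka. Dct overlaps the opposite-strand gene 4930435M08Rik, and Ednra overlaps 4933431K23Rik, also on the opposite strand. The few molecules of these genes need that reservation. Promoter stretches of Mitf, Dct and Tyrp1 are shown because MITF and the cAMP pathway are known to act on these pigment genes through short motifs. The RefSeq promoter table (GRCm38.p6) held 10 windows of 250 bases before a transcription start for 7 of the 8 genes. They were searched on both strands for CATGTG, the E-box core of the M-box, for the palindromic E-box CACGTG, and for TGACGTCA, the cAMP response element, none of which overlapped another. Matches lay in 3 windows, those printed, each found once on its chromosome in GRCm39, with the matches in capitals.

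Mitf, the most 3′ of its 3 starts, chr6:97968494-97968743, plus strand: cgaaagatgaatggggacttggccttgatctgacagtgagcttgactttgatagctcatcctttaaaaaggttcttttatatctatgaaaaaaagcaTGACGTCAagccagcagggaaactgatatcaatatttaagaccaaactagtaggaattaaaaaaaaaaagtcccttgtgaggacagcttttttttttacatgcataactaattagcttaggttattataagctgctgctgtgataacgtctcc
Dct, chr14:118289659-118289908, minus strand: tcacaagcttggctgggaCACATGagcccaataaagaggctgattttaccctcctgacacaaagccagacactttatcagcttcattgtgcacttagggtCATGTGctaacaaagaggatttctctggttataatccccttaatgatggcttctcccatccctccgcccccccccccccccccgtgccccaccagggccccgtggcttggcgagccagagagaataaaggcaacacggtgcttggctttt
Tyrp1, the 30 bases around its match, chr4:80752392-80752421, plus strand: tggggagggagtCATGTGctgcctagtagt

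The Mitf window has TGACGTCA beginning 153 bases before the start, the Dct window has CATGTG beginning 232 and 150 bases before it, and the Tyrp1 window has CATGTG at 46 bases. These starts are those of the RefSeq promoter table. The Tyrp1 stretch shown lies inside the gene as annotated in GENCODE M39, which begins at 80752360. CATGTG was present in 12.3% of the 32851 promoter windows of the table, CACGTG in 6.02% and TGACGTCA in 1.55%. The matches describe the sequence and do not show that a factor was bound in these cells.

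The E11.5 library held 1431 barcodes and 10287595 unique molecular identifiers (UMIs, each a counted mRNA molecule), and the E12.5 library 3762 barcodes and 23460243 UMIs. After the cell filters 833 cells with a median of 11601 UMIs and 3496 cells with a median of 6140 UMIs remained, and 9 barcodes occurred in both libraries. Clusters were built without the 8 genes and the other listed pathway genes that were not also cell type markers. The pigment genes that served as melanoblast-like markers, Slc24a5 among them, were not kept out. Clusters were named from 12 glial, 19 neuronal and other markers. Sox10-positive glia were the cells of glia-like clusters with at least 1 UMI of Sox10, the transcription factor of crest glia: 481 cells with a median of 12520 UMIs at E11.5 and 1368 cells with a median of 6226 UMIs at E12.5. Neuron-like cells (223 and 1440) served as the class that should lack glial genes. The glia-like clusters also held 68 and 429 cells without a Sox10 UMI, here called Sox10-negative, with medians of 3084 and 4980 UMIs. The remaining classes were pericyte-like (61 and 41 cells) and, at E12.5, mesenchymal-like (182) and myeloid-like (36). No cluster was melanoblast-like: of the 7 markers of that list 4 and 6 had a UMI in the glia, with a summed level of 139 and 214 UMIs per 1000000 that was nearly all Slc24a5, and neuron-like cells had 155 and 271. Levels are UMIs per 1000000 UMIs of the class (CPM), and intervals are 95% Poisson or binomial intervals that cover counting error only.

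Ednrb was the member that Sox10-positive glia held in bulk. At E11.5 it had 2194 UMIs, a level of 371 CPM (355 to 387), and 430 of the 481 cells had at least 1 (89.4%). At E12.5 it had 7135 UMIs, a level of 791 CPM (773 to 810), and 1273 of the 1368 cells had at least 1 (93.1%). Neuron-like cells were at 8.99 CPM and 18.8 CPM, and 9.42% and 9.93% of them had a UMI at median depths of 11901 and 6452 UMIs. The glial level was thus 41.2-fold (27.6 to 64.5) the neuronal level at E11.5 and 42.2-fold (36.4 to 49.1) at E12.5. The neuronal level of Ednrb was 2.43% and 2.37% of the glial level, within the range of the 12 glial markers in the same cells, which ran from 0% to 27.1% at E11.5 and from 1.10% to 14.6% at E12.5. Pericyte-like cells had 0 and 2 UMIs of Ednrb.

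**Figure D1:**
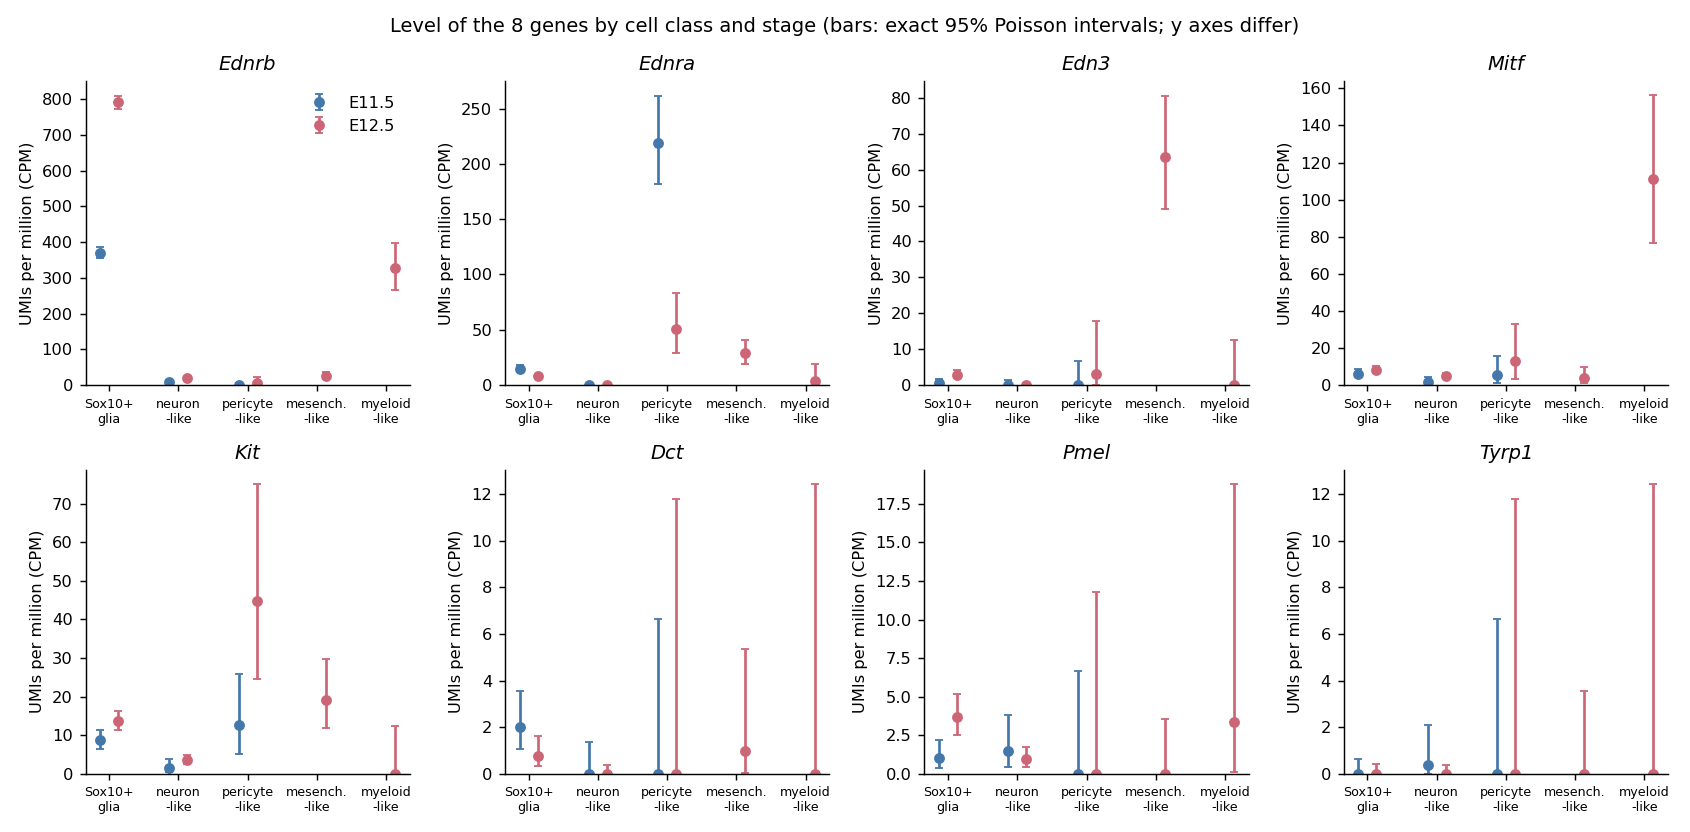
Level of each of the 8 genes in UMIs per 1000000 (CPM, y axis) in the cell classes (x axis) at E11.5 (blue) and E12.5 (red), with exact 95% Poisson intervals; mesenchymal-like and myeloid-like cells were found only at E12.5. Ednrb is highest in Sox10-positive glia (371 and 791 CPM), Ednra in pericyte-like cells (219 and 51.1 CPM), Edn3 in mesenchymal-like cells (63.4 CPM) and Mitf in myeloid-like cells (111 CPM).

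Of the 8 genes, 4 had the 20 UMIs over both classes that a comparison of glia with neurons required at E11.5, and all 4 (Ednrb, Ednra, Kit and Mitf) were more than 2-fold higher in glia, as were 18.7% of all genes compared. At E12.5, 5 of 6 (Ednrb, Ednra, Edn3, Kit and Pmel) passed 2-fold, against 22.2% of all genes, while Mitf did not. None was more than 2-fold lower in glia, a direction that 11.2% and 13.2% of all genes took. Tyrp1 lacked the 20 UMIs at both stages and Dct too, as did Edn3 and Pmel at E11.5.

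Between the stages, Ednrb in Sox10-positive glia was 2.14-fold higher at E12.5 (2.04 to 2.24). Of all genes compared in these glia, 9.67% were more than 2-fold higher at E12.5 and 1.96% more than 2-fold lower, and the median gene was at 1.09-fold. Of the 8 genes, 6 were compared, 3 of which were past 2-fold, all higher at E12.5 (Ednrb, Edn3 and Pmel). Edn3 and Pmel had only 4 and 6 UMIs at E11.5, and the lower bounds of their ratios, 1.48 and 1.49, were under 2-fold. The median cell held 4 Ednrb UMIs at both stages, although the glia of E12.5 were the shallower ones. With each cell thinned to 2000 UMIs, 236 of 481 cells at E11.5 (49.1%, 44.5 to 53.6) and 965 of 1329 cells at E12.5 (72.6%, 70.1 to 74.99) still had Ednrb, and the mean was 0.730 and 1.58 UMIs per cell. Neuron-like cells thinned in the same way had shares of 2.24% and 3.49%. The most Ednrb UMIs in a cell were 34 and 31 before thinning.

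**Figure D2:**
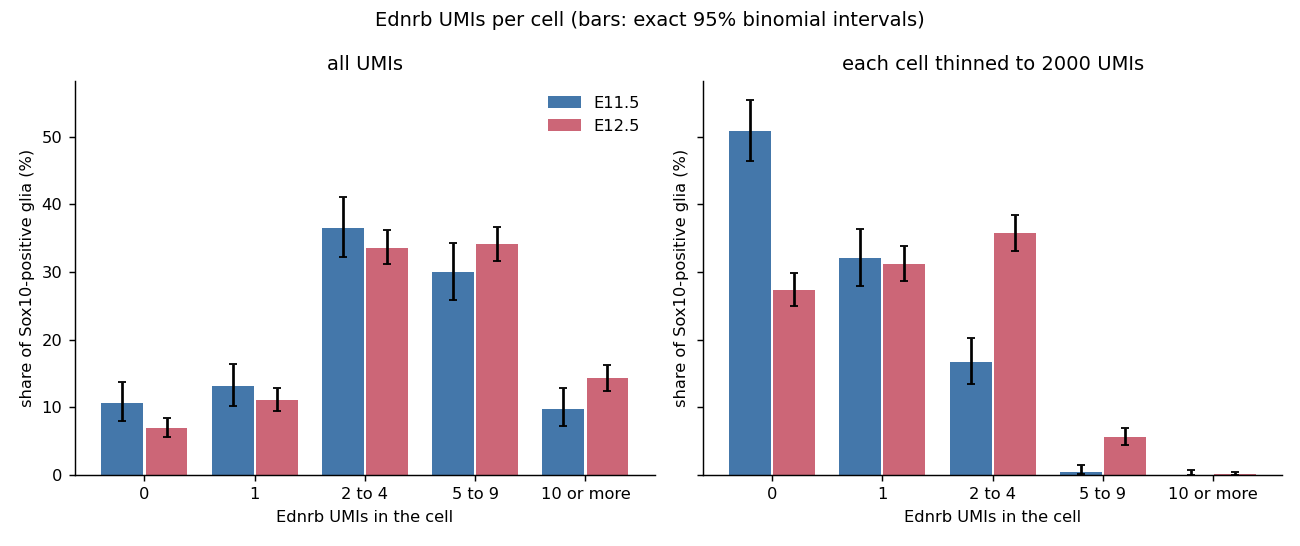
Share of Sox10-positive glia (y axis, %) by the number of Ednrb UMIs in the cell (x axis), for all UMIs (left) and with each cell thinned to 2000 UMIs (right), at E11.5 (blue) and E12.5 (red), with exact 95% binomial intervals. Cells with 0 Ednrb UMIs are 10.6% and 6.94% of the glia before thinning, and 50.9% and 27.4% after it.

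Within the glia, the level of Ednrb, here over all cells of a cluster, varied between clusters at both stages, and the levels of the stages did not overlap. The 6 glia-like clusters of E11.5 ran from 211 CPM (179 to 249) in cluster 7 to 442 CPM (406 to 480) in cluster 4. The 7 glia-like clusters of E12.5 ran from 554 CPM (509 to 603) in cluster 10 to 1074 CPM (1028 to 1121) in cluster 9. Cluster 7 of E11.5 was led by Plcb1 and the Notch ligand gene Dll1 and held the sensory neuron factor Pou4f1 at 274 CPM. The E12.5 cluster led by the same Plcb1 (also numbered 7; Pou4f1 137 CPM) was at 641 CPM, with only 2 glia-like clusters of its stage lower. Cluster 9 of E12.5, the highest, was led by Ctnnd2, Rgcc, Sfrp5 and the glial lipid-binding gene Fabp7. Clusters 8 and 12 of E12.5, at 929 CPM and 586 CPM, were led by genes of dividing cells such as Ccnb1 and Cenpf. Cluster 9 of E11.5, at 365 CPM (300 to 439), was shallow, with a median of 2839 UMIs per cell.

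**Figure D3:**
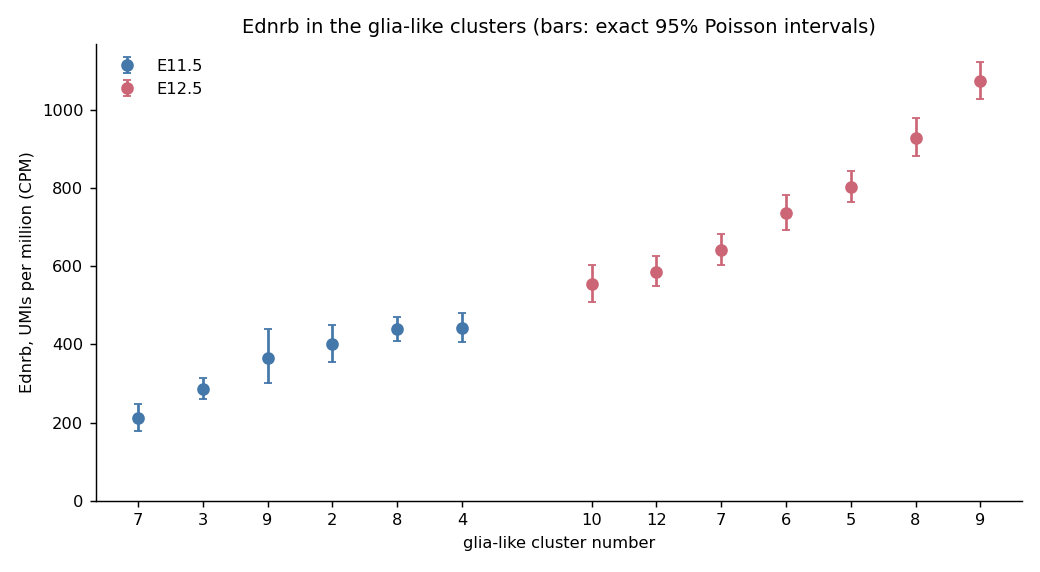
Ednrb level (y axis, UMIs per 1000000) in each glia-like cluster (x axis, cluster number, ordered by level within the stage) at E11.5 (blue) and E12.5 (red), with exact 95% Poisson intervals. The 6 clusters of E11.5 lie between 211 and 442 CPM and the 7 of E12.5 between 554 and 1074 CPM.

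Ednrb was compared with Prss56 and Egr2, boundary cap genes, with Sox8 and Itga4, markers of the hub state of Schwann cell precursors, and with the Notch target Hes5. At E12.5 the 414 Sox10-positive glia with a Prss56 UMI had Ednrb at 585 CPM (556 to 615), lower than the 879 CPM (856 to 902) of the 954 without. At E11.5 the same split gave 338 CPM (311 to 367) and 384 CPM (365 to 403). Cells with Egr2 were also the lower ones, at 313 CPM against 393 CPM at E11.5 and at 640 CPM against 825 CPM at E12.5. Read the other way, Prss56 stood at 533 CPM (464 to 609) in the 95 glia of E12.5 without an Ednrb UMI and at 156 CPM (148 to 164) in the 1273 with one. The glia without Ednrb were shallower, with a median of 4202 UMIs against 6331. At E11.5 Prss56 was at 58.8 CPM (36.4 to 89.8) and 55.9 CPM (49.9 to 62.5) in glia without and with Ednrb. Cells with Itga4 had more Ednrb at E11.5 (454 CPM, 422 to 487, against 339 CPM, 322 to 357), and intervals that overlapped at E12.5 (817 CPM, 770 to 866, against 787 CPM, 767 to 807). Cells with Hes5 had more at E12.5 (904 CPM, 853 to 957, against 773 CPM, 753 to 792), and intervals that overlapped at E11.5 (386 CPM, 338 to 440, against 369 CPM, 353 to 386). The level with and without Sox8 differed by less than its interval at both stages.

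The Sox10-negative cells of the glia-like clusters had Ednrb at 342 CPM (287 to 405) at E11.5 and 738 CPM (702 to 776) at E12.5. Of these cells, 69.1% and 83.2% had at least 1 UMI of it. Outside the glia-like clusters, the 36 myeloid-like cells of E12.5 were the other class with much Ednrb. They had 97 UMIs in 27 cells, a level of 327 CPM (265 to 399), or 41.3% of the glial level. All 12 glial markers stood lower in these cells relative to glia, with a median of 2.50% and Sox10 at 0.891%. The class was led by C1qb, Pf4, Fcer1g and Tyrobp, genes of macrophages, and had 0 UMIs of Kit, Dct and Tyrp1. Mesenchymal-like cells had 25.9 CPM of Ednrb (27 UMIs in 20 of 182 cells), 3.28% of the glial level, with the glial markers at a median of 3.66%.

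Ednra was sparse in the glia and led elsewhere. Sox10-positive glia had 86 UMIs in 75 cells at E11.5 (14.5 CPM, 11.6 to 17.9) and 73 UMIs in 71 cells at E12.5 (8.10 CPM, 6.35 to 10.2), a ratio of 0.557 (0.402 to 0.770). Neuron-like cells had 0 UMIs at E11.5, where the glial level was 12.9-fold a floor of 3 UMIs in the neuronal class, with the glial counting error left aside. They had 2 UMIs at E12.5, where the glial level was 39.3-fold higher (10.5 to 330). Shares of glia with Ednra were 3.12% and 1.88% after thinning. Of the 75 and 71 glia with Ednra, 72 and 67 also had Ednrb. Both stages had the lowest glial level in the cluster led by Plcb1 (0 UMIs at E11.5 and 2.44 CPM at E12.5), and the highest level of E11.5 was 22.8 CPM (16.3 to 30.9) in cluster 8. Pericyte-like cells had Ednra at 219 CPM (182 to 262) in 50 of 61 cells at E11.5 and at 51.1 CPM (29.2 to 83.0) in 15 of 41 cells at E12.5, a ratio of 0.233 (0.129 to 0.394). In that class 7.86% of all genes were more than 2-fold lower at E12.5 and 5.95% more than 2-fold higher, and of the 8 genes Ednra was lower and Kit higher among the 2 that could be compared. The leading genes of the pericyte-like cluster differed as well, with Igfbp7, Vtn and Rgs5 at E11.5 and the contractile genes Acta2 and Tagln at E12.5. Mesenchymal-like cells had 28.8 CPM, in 28 of 182 cells.

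The ligand Edn3 was nearly absent from the glia. It had 4 UMIs in 4 cells at E11.5 (0.676 CPM, 0.184 to 1.73) and 26 UMIs in 26 cells at E12.5 (2.88 CPM, 1.88 to 4.23), a ratio of 4.27 (1.48 to 16.8). Neuron-like cells had 0 and 1 UMIs. The mesenchymal-like cells of E12.5 held 66 UMIs in 50 of 182 cells, 63.4 CPM (49.0 to 80.6), and pericyte-like cells 1 UMI at that stage. The class was led by the matrix genes Lum, Dcn and Col1a1 and by Cxcl12. Edn1, the other ligand found, had 15 UMIs in the glia of E11.5 and 11 in those of E12.5, a ratio of 0.481 whose interval, with an upper bound of 1.12, includes no difference. Edn2 had 0 at both stages.

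Endothelin-converting enzyme 1 (Ece1), which cleaves the precursor, was at 28.2 CPM and 32.8 CPM in Sox10-positive glia and at 14.6 CPM and 28.2 CPM in neuron-like cells. Of the 8 listed G protein and phospholipase C genes that carry the receptors' signal, Plcb4 was more than 2-fold higher in glia than in neurons at both stages (2.40-fold, 1.51 to 3.97, and 4.53-fold, 3.38 to 6.16), and Plcb1 and Plcb2 were at E12.5, while at E11.5 Plcb1 was within 2-fold and Plcb2 had too few UMIs. For Plcb1 the ratio of glia to neurons at E12.5 was 2.29 (2.06 to 2.55). The Gq alpha subunit gene Gnaq was at 107 CPM and 152 CPM in the glia and at 96.3 CPM and 102 CPM in neurons. The list's median ratio of glia to neurons was 1.34 and 1.48, beside 1.10 and 1.11 over all genes, and none of the 8 passed 2-fold between the stages.

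Mitf was rare in the glia. It had 36 UMIs in 30 of 481 cells at E11.5 (6.08 CPM, 4.26 to 8.42) and 75 UMIs in 70 of 1368 cells at E12.5 (8.32 CPM, 6.54 to 10.4), a ratio of 1.37 (0.908 to 2.10). No glial cell held more than 3 UMIs. The glial level was 3.25-fold (1.27 to 10.6) the neuronal level at E11.5 and 1.72-fold (1.18 to 2.53) at E12.5. With equal depth 8 of 481 and 20 of 1329 glia had Mitf, against 1 of 223 and 19 of 1376 neuron-like cells (0.448% and 1.38%). At neither stage could the thinned share be set apart from that of the neuronal class. At E11.5 the intervals were 0.721% to 3.25% in glia and 0.0114% to 2.47% in neuron-like cells. Among glia-like clusters the highest levels were 10.9 CPM (6.37 to 17.5) in cluster 3 of E11.5 and 17.3 CPM (10.1 to 27.6) in cluster 10 of E12.5, both of which held Prss56, at 126 CPM and 324 CPM. Cluster 5 of E12.5, with the most Prss56 (397 CPM), had Mitf at 12.7 CPM, and cluster 12, with Prss56 at 316 CPM, had it at 7.06 CPM. The level of Ednrb in glia with Mitf was 305 CPM (254 to 363) at E11.5 and 675 CPM (604 to 752) at E12.5, against 376 CPM (360 to 392) and 798 CPM (779 to 817) without. The 36 myeloid-like cells had 33 UMIs in 19 cells, 111 CPM (76.5 to 156), and MITF is known to act in the macrophage and osteoclast lineage as well.

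Factors known to act on Mitf were well detected in the same glia. Of the 8 listed regulators, 5 (Sox10, Foxd3, Sox2, Lef1 and Zeb2) were more than 2-fold higher in glia than in neurons at both stages. The other 3 were within 2-fold and none was lower. Over all genes 18.7% and 22.2% were more than 2-fold higher. Sox10, Foxd3 and Sox2 were among the markers that named the class, and Sox10 chose its cells. Their levels, and their part in the count of 5, thus describe the class and are no result. Of the other 5 regulators, Lef1 and Zeb2 were more than 2-fold higher, and Pax3, Creb1 and Tfap2a were within 2-fold. Lef1, the nuclear partner of beta-catenin, was at 179 CPM and 135 CPM in glia and at 36.0 CPM and 19.1 CPM in neurons. Zeb2 was at 662 CPM and 800 CPM in glia and at 287 CPM and 292 CPM in neurons. Pax3, the paired-box factor that acts with SOX10 on Mitf, was at 155 CPM and 185 CPM in glia, 1.65-fold (1.43 to 1.90) and 1.89-fold (1.74 to 2.05) the neuronal level. Foxd3, a repressor of Mitf in the crest, was at 33.8 CPM and 19.5 CPM, a ratio of E12.5 to E11.5 of 0.578 (0.469 to 0.711). None of the 8 passed 2-fold between the stages.

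Kit had 51 UMIs in 45 of 481 glia at E11.5 (8.62 CPM, 6.42 to 11.3) and 123 UMIs in 109 of 1368 at E12.5 (13.6 CPM, 11.3 to 16.3), a ratio of 1.58 (1.13 to 2.24). Glia exceeded neurons 5.75-fold (2.11 to 21.9) and 3.89-fold (2.64 to 5.87). The thinned shares were 2.29% and 1.96% in glia and 0.897% and 0.945% in neuron-like cells. Kit was spread unevenly over the glia-like clusters. At E12.5 clusters 8, 10 and 9 had 24.4, 21.3 and 19.98 CPM, and clusters 5 and 12 had 5.37 CPM (2.68 to 9.61) and 5.77 CPM. The 3 clusters high in Kit held Hes5 at 51.5 to 73.1 CPM, and clusters 5 and 12 held it at 2.93 and 0.641 CPM. Cluster 7 held Hes5 at 51.2 CPM with Kit at 10.97 CPM, and cluster 6 held Hes5 at 2.06 CPM with Kit at 10.3 CPM. At E11.5 Kit ran from 1.45 CPM in cluster 7 and 1.67 CPM in cluster 8 to 17.2 CPM in cluster 2 and 19.7 CPM (7.24 to 42.9) in the shallow cluster 9. Hes5 did not follow that order, with the most in cluster 4 (21.3 CPM, Kit 9.46 CPM). Glia with Kit had Ednrb at 350 CPM (306 to 399) and 863 CPM (802 to 927), and glia without it at 373 CPM and 784 CPM (765 to 803). Pericyte-like cells had Kit at 12.6 CPM and 44.7 CPM and mesenchymal-like cells at 19.2 CPM. Mast cells also carry KIT, and of their 7 markers the glia had 1 UMI in all at E11.5 and 38 UMIs over 3 genes at E12.5, where neuron-like cells had 2 and 51 UMIs. The ligand gene Kitl was found in the same glia, at 10.98 CPM and 17.97 CPM, with 0.375 CPM and 1.24 CPM in neuron-like cells and 48.5 CPM and 38.3 CPM in pericyte-like cells.

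Dct was found in few glia, most of those at E11.5 in a single cluster. It had 12 UMIs in 11 of 481 cells at E11.5 (2.03 CPM, 1.05 to 3.54) and 7 UMIs in 7 of 1368 cells at E12.5 (0.776 CPM, 0.312 to 1.60), a ratio of 0.383 whose interval (0.128 to 1.06) includes no difference. Neuron-like cells had none, and by a floor of 3 cells these counts of 0 allow shares of cells with a UMI of 1.35% (0 of 223; exact upper limit 1.64%) and 0.208% (0 of 1440; exact upper limit 0.256%). The only UMI outside the glia was in a mesenchymal-like cell of E12.5, which also had Sox10. Thinned to equal depth, 0 and 3 glia still had Dct, and no order of the stages is read from these. The glial level was 1.80-fold and 2.51-fold a floor of 3 UMIs in the neuronal class, with the glial counting error left aside. The exact upper limits of the neuronal level, 1.38 CPM and 0.380 CPM, lay within the glial intervals, which by itself does not decide whether glia exceeded neurons. No fold interval was computed against 0 UMIs, so no size of an excess over neurons is given for Dct. All 12 and 8 Dct UMIs of the kept cells were in cells with Sox10, which were 62.1% and 42.9% of the kept cells. Of the 12 UMIs of E11.5, 10 fell in cluster 8, in 9 of its 134 Sox10-positive cells (6.72%), and the other 2 in cluster 4. Among glia-like clusters of E11.5, cluster 8 had the most Itga4, at 73.3 CPM, and it had Egfl8, Sfrp1 and Gfra3 among its leading genes and Ednrb at 439 CPM. At E12.5 the 7 cells lay in 4 clusters. Cluster 12 held 3 in 170 Sox10-positive cells (1.76%) and cluster 5 held 2 in 338 (0.592%). These were the glia-like clusters with the most Itga4 of that stage (49.4 and 43.0 CPM). Clusters 6 and 7 held 1 each, in 187 (0.535%) and 163 cells (0.613%), and cluster 7 had the least Itga4 (6.10 CPM). No order of the clusters of E12.5 is read from so few cells. The glia-like clusters highest in Kit at E12.5 (8, 9 and 10) had 0 Dct UMIs.

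**Figure D4:**
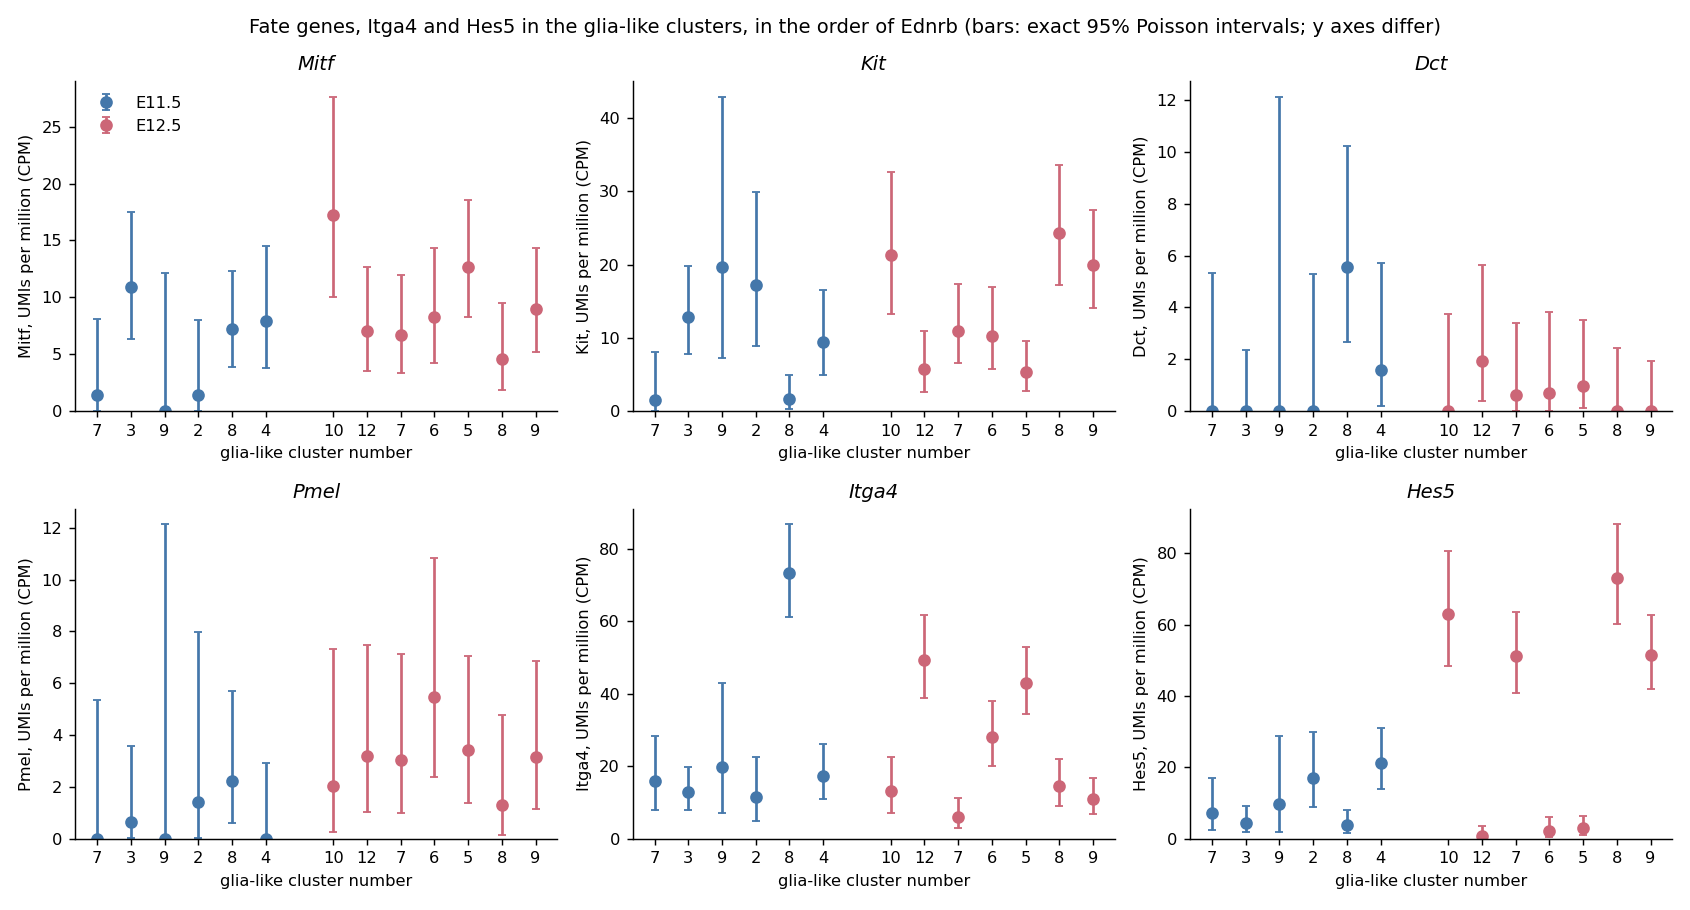
Levels (y axes, UMIs per 1000000) of Mitf, Kit, Dct, Pmel, Itga4 and Hes5 in the glia-like clusters (x axes, cluster numbers in the order of their Ednrb level within the stage) at E11.5 (blue) and E12.5 (red), with exact 95% Poisson intervals. Dct is highest in cluster 8 of E11.5 (5.55 CPM), where Itga4 is highest among the clusters of that stage shown (73.3 CPM) and Kit is at 1.67 CPM. At E12.5 Kit is highest among the glia-like clusters in 8, 9 and 10, where Dct is at 0. The exact upper limits of Dct there (2.43, 1.94 and 3.75 CPM) exceed its highest level of that stage (1.92 CPM), so no order is read.

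All 18 glia with Dct carried Ednrb, 11 at E11.5 and 7 at E12.5, where the products of the separate shares give 9.83 and 6.51 cells. At E11.5 the 11 cells held 1, 4, 5, 5, 5, 5, 7, 7, 19, 22 and 26 Ednrb UMIs, and at E12.5 the 7 cells held 3, 5, 5, 5, 13, 14 and 17. The median was 5 at both stages, beside a median of 4 over all Sox10-positive glia, and 3 cells at each stage held 13 or more. Summed, Ednrb stood at 754 CPM (617 to 911) in the Dct cells of E11.5 against 361 CPM (346 to 377) in the other glia, and at 1298 CPM (995 to 1664) against 789 CPM (770 to 807) at E12.5. Much of these sums lay in the few cells with 13 or more UMIs, and the intervals leave out variation between cells. Cluster 8, with 9 of the 11 Dct cells of E11.5, was itself at 439 CPM (409 to 470). Mitf was found in 2 and 0 of the Dct cells, Kit in 1 and 0, and Pmel in 0 and 0. At E11.5 only 1 cell held 2 UMIs of Dct, and at E12.5 none did.

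Pmel had 6 UMIs in 6 glia at E11.5 (1.01 CPM, 0.372 to 2.21) and 33 UMIs in 33 glia at E12.5 (3.66 CPM, 2.52 to 5.14), a ratio of 3.61 (1.49 to 10.5). At E11.5 its share in glia, 1.25%, was below the 1.79% of neuron-like cells and is read as background. At E12.5 the shares were 2.41% (1.67 to 3.37) in glia and 0.625% (0.286 to 1.18) in neuron-like cells, and 0.978% and 0.0727% with equal depth. The cells with Pmel lay in all 7 glia-like clusters of E12.5, at 1.36% to 4.28% of the Sox10-positive cells of each. Tyrp1 had 0 UMIs in the glia of both stages, which by the same floor allows shares of cells with a UMI of 0.624% (0 of 481) and 0.219% (0 of 1368), with exact upper limits of 0.764% and 0.269%. Its only UMI in a named class was in a neuron-like cell of E11.5, which also had Sox10.

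Several of the other pigment genes listed were just as scarce. In Sox10-positive glia Tyr, the rate-limiting enzyme of melanin, had 0 and 2 UMIs, Mlana 0 and 1, Trpm1 0 and 2, Slc45a2 1 and 0, Gpr143 1 and 1, and Oca2 3 and 16. Rab38, a small GTPase that carries pigment enzymes to the melanosome, was an exception. It stood at 45.6 CPM (40.3 to 51.4) and 42.3 CPM (38.1 to 46.7) in glia, with 4 and 11 UMIs in neuron-like cells. The ratios were 30.4 (11.8 to 113) and 37.2 (20.6 to 75.3). Rab38 was in 170 of 481 and 280 of 1368 glia. Slc24a5, a melanosomal ion exchanger, was another exception, at 138 CPM and 212 CPM in glia but at 155 CPM and 270 CPM in neurons. It overlaps Myef2 on the opposite strand. At E12.5 Mc1r and Rab27a were more than 2-fold lower in glia than in neurons, and Oca2 was 2.46-fold higher, with an interval (0.957 to 7.07) that includes no difference. Over 9 pigment genes (Dct, Gpr143, Mlana, Oca2, Pmel, Slc45a2, Trpm1, Tyr and Tyrp1), 22 glia of E11.5 (4.57%) and 62 of E12.5 (4.53%) had at least 1. The shares were 2.24% and 1.46% in neuron-like cells and 3.48% and 2.77% in all kept cells. Of these 9 genes, 0 of 833 and 0 of 3496 kept cells of any class had 2. With so few cells holding any of the 9, these counts of 0 cannot decide whether the genes are held together. Slc24a5 was left out of the 9. With it added, 62.6% and 57.2% of glia and 63.7% and 63.6% of neuron-like cells had at least 1. Then 18 and 51 kept cells had 2 or more.

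Held together, the 5 fate genes Mitf, Kit, Dct, Pmel and Tyrp1 mostly occurred alone. At E11.5, 395 of 481 Sox10-positive glia had none, 80 had 1 and 6 had 2 (1.25%, 0.459 to 2.70). At E12.5, 1162 of 1368 had none, 193 had 1 and 13 had 2 (0.950%, 0.507 to 1.62). No cell had 3 or more at either stage, with exact upper limits of 0.764% and 0.269%. In neuron-like cells 13 of 223 and 85 of 1440 had at least 1 (5.83% and 5.90%) and 0 and 2 had 2, beside 17.9% and 15.1% of the glia with at least 1. With equal depth 4.16% and 4.51% of glia and 2.24% and 2.33% of neuron-like cells had at least 1.

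**Figure D5:**
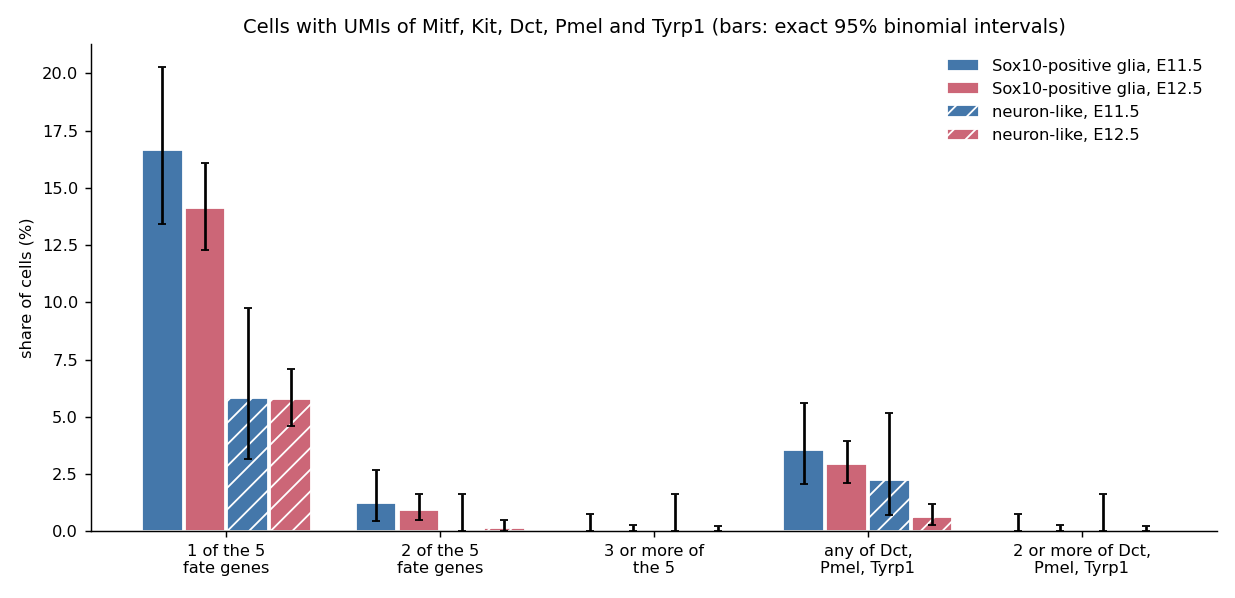
Share of cells (y axis, %) with UMIs of 1, 2 or 3 and more of Mitf, Kit, Dct, Pmel and Tyrp1, and of the pigment genes Dct, Pmel and Tyrp1 (x axis), in Sox10-positive glia (plain) and neuron-like cells (hatched) at E11.5 (blue) and E12.5 (red), with exact 95% binomial intervals. In glia 1.25% and 0.950% of cells had 2 fate genes, and none had 3 fate genes or 2 of the 3 pigment genes.

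At least 1 of Dct, Pmel and Tyrp1 was in 17 glia of E11.5 (3.53%, 2.07 to 5.60) and 40 of E12.5 (2.92%, 2.10 to 3.96), and in 2.24% and 0.625% of neuron-like cells. No glial cell had 2 of the 3, where the product of the shares of Dct and Pmel gives 0.137 and 0.169 cells. With equal depth the glial shares were 0.208% (1 of 481) and 1.20% (16 of 1329), and the neuron-like ones 0.897% (2 of 223) and 0.0727% (1 of 1376). The pairs at E11.5 were Mitf with Dct in 2 cells, where the product of the separate shares gives 0.686 cells, and 4 other pairs in 1 cell each. For these the products give 2.81 cells (Mitf with Kit), 0.374 (Mitf with Pmel), 1.03 (Kit with Dct) and 0.561 (Kit with Pmel). At E12.5 they were Mitf with Kit in 8 cells, where the product gives 5.58 cells, and Kit with Pmel in 5, where it gives 2.63. Mitf with Pmel, Kit with Dct and Mitf with Dct were in 0 cells of E12.5, where the products give 1.69, 0.558 and 0.358. The 6 cells of E11.5 lay in clusters 2, 3, 4 and 8 and had 16094 to 28213 UMIs, all above the median depth of the class. Both cells with Mitf and Dct were in cluster 8. One of them had 16184 UMIs in all, with 19 of Ednrb, 4 of Sox10 and 1 each of Mitf and Dct. The 13 cells of E12.5 lay in 7 clusters, and 1 of them had no Ednrb.

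Read by receptor, Ednrb accompanied nearly all cells with a fate gene. Of the glia with Mitf, 30 of 30 (E11.5) and 66 of 70 (E12.5) had Ednrb, as did 41 of 45 and 106 of 109 with Kit, and 6 of 6 and 32 of 33 with Pmel. These shares stand beside the 89.4% and 93.1% of all Sox10-positive glia that had Ednrb, and the products of the separate shares give 26.8 and 65.1 cells for Mitf and 40.2 and 101 for Kit.

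Over the 27 clusters of at least 30 cells, the genes whose log2(CPM + 1) followed Ednrb most closely were Moxd1 (Pearson's r = 0.93), Igsf11, Ugdh, the neuregulin receptor gene Erbb3 and Plekhb1 (r = 0.91). For Ednra they were Pald1 (r = 0.93), Krtcap2, Cnn2, Gng11 and Rhoc. For Mitf they were Pnpla7 (r = 0.82), Wwp1 and Ntpcr, and for Kit Elob (r = 0.86), Kank1 and Arhgap32. The correlation of Ednrb was 0.22 with Ednra, 0.30 with Mitf and 0.28 with Kit. That of Ednra was 0.67 with Kit and 0.27 with Mitf, and that of Mitf with Kit was -0.05. The 27 clusters are of all classes, among them the myeloid-like one, in which Mitf was highest (111 CPM). Clusters of a library share its depth and preparation, and these values, from 10286 genes with at least 200 UMIs, describe the clusters without a test.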

How the data were processed

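The authors sorted Tomato-positive cells, prepared 10x 3′ V2 libraries and deposited raw UMI counts per gene and cell. Cell Ranger 7.0 and the mm39 build are named in the submitters' processing notes, and the file headers give Cell Ranger 7.0.1. Whether intronic reads were counted is not given in the sources used here, and the overlaps of Ednra, Dct, Pmel and Slc24a5 are reported with that reservation. It applies also to other listed genes with an opposite-strand overlap, such as Edn1, Ece1, Lef1 and Zeb2. From the deposited counts, cells were kept at no more than 10% mitochondrial UMIs, a minimum of 2000 UMIs (E11.5) or 1000 UMIs (E12.5), and a Scrublet doublet score under 0.2, as in the study's methods. A Prss56-Cre library of the study was not analysed here.

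Each library was scaled to 10000 UMIs per cell and clustered in scanpy 1.11.5 (3000 variable genes, 30 components, 15 neighbours, Leiden resolution 1), with 31 endothelin and pigment genes kept out. A cluster took the name of a list with at least 3 markers found in 20% of its cells at a mean no less than that of the highest cluster divided by 3. Summed UMIs per 1000000 carry exact Poisson intervals, shares exact (Clopper-Pearson) binomial ones at 95%, and folds exact conditional ones (scipy 1.17.1), which cover counting error only. Cells are not replicates and 1 library per stage allows no test, so no p-value is given. Genes with at least 20 UMIs over both classes were compared, and 2-fold was used as a descriptive limit, with a floor of 3 UMIs against 0. For shares across depths, each cell was thinned once to 2000 UMIs (165 shallower cells of E12.5 were left out). The fold and interval were checked on simulated Poisson counts for glia of E12.5 over E11.5. Median ratios of 1.99 and 3.97 were recovered for simulated folds of 2 and 4 over 100 genes each, among 13346 genes. The intervals held the true fold for 90% and 96% of the genes at these folds. Poisson counts are what the interval assumes, and no variation between cells or libraries was simulated. The check therefore covers the computation and counting error only.

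The genes named are the 8 members, listed pathway genes with at least 20 UMIs in the glia or beside a member, the 5 genes closest to each receptor and the 3 closest to Mitf and Kit over clusters, and Prss56, Egr2, Sox8, Itga4 and Hes5. Scarcer pigment genes and cluster-leading genes were named after their values were seen. Members and lists were chosen with earlier results of these data known. Alternatives were other cell filters, other definitions of Sox10-positive glia, other clusterings, cell-wise means, thinning and a minimum of 2 UMIs per positive cell.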

Additional observations from a re-analysis of the deposited data

How the results depend on the processing

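The 5 levels and 2 shares of each stage were recomputed under 13 or 14 alternatives, of which the removal of shallow glia-like clusters was chosen after seeing the data. Of 186 recomputed values, 171 stayed within the main counting interval, among them all values of Ednra, Edn3, Mitf and Kit. Some of the 171 could not move. A minimum of 2000 UMIs at E11.5 and of 1000 UMIs at E12.5 repeat the main setting. The removal of shallow clusters left E12.5 unchanged, as it had none. At E11.5 the other clusterings also returned the same number of glia (481) and the same values. Ednrb at E11.5 was 389 CPM with a minimum of 1000 UMIs, 344 CPM over all kept cells with Sox10 and 394 CPM as a mean of cells. Without glia-like clusters that had Pou4f1 in at least 30% of their cells, Ednrb at E11.5 was 388 CPM. At E12.5 it was 768 CPM without the doublet filter, 718 CPM over all cells with Sox10 and 828 CPM as a mean of cells. Its ratio of E12.5 to E11.5 ran from 2.04 to 2.17 over the 14 settings. The share with Dct, Pmel or Tyrp1 was 0.208% and 1.20% after thinning, and 0.208% and 0% when 2 UMIs of a gene were required. The share with 2 or more fate genes was 0% and 0.150% after thinning, and 0% and 0% with 2 UMIs required. Fewer UMIs enter each of these 4 pairs by construction, so shares of these genes are limited by depth. With 1 library per stage, leaving out a replicate was not possible. No paired analysis was possible because each stage has a single library and no result comes from a test.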
